A study of Mus musculus with 4 samples.

Results

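The synaptic vesicle release machinery was examined as a list of 32 mouse genes whose products store transmitter in vesicles, hold vesicles at the release site and fuse them with the plasma membrane. Genes were found on the array through the RefSeq accession given for each probe, and 31 of the 32 had at least 1 probe. Those 31 genes were read by 47 of the 56605 probes on the array and are 31 of the 23462 genes that could be named. No probe was matched to Syt5, so it has no value here. All 31 genes, and all 47 probes, were well above background on all 4 arrays, so no member was lost to a filter on dim probes.

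Total RNA from whole brain was measured on 4 single-colour Agilent arrays, 1 per group. The groups were Nav1.8CreROSA26DTA mice given LPS, wild-type mice given LPS, Nav1.8CreROSA26DTA mice given PBS, and wild-type mice given PBS. LPS, lipopolysaccharide from the wall of Gram-negative bacteria, was injected intraperitoneally (20 mg/kg), and brains were collected after 12 hours; PBS is the saline vehicle. In Nav1.8CreROSA26DTA mice, Cre recombinase under control of the Nav1.8 sodium channel gene switches on diphtheria toxin A from the ROSA26 locus. This kills Nav1.8-lineage sensory neurons, chiefly nociceptors, whose cell bodies lie in peripheral ganglia outside the brain. The comparisons ask what LPS did to brain gene expression and whether the loss of these neurons altered it. The labels name no separate animals, ages or sexes, and do not say whether an array holds 1 brain or a pool. With 1 array per group, p-values measure neither the spread between animals nor that between arrays of a group.

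Neurons release transmitter when calcium entering the nerve terminal makes a filled vesicle fuse with the membrane. Vesicular transporters load glutamate or GABA, and synapsins tether the loaded vesicles in a reserve. Scaffold proteins of the active zone, such as Bassoon, Piccolo and RIM, gather vesicles at the release site, where Munc13 primes them. Synaptobrevin on the vesicle then zips together with syntaxin and SNAP-25 on the membrane, complexin clamps and promotes this SNARE complex, synaptotagmin senses calcium, and NSF takes the spent complex apart. Most of these genes are active in neurons throughout the brain, while some family members and the transporters mark certain regions or neuron types.

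The upstream sequence of several members is shown first, so that the regions where these transcripts start can be read beside their values. RefSeq windows of GRCm38.p6, 250 bases before to 50 bases after a gene's start, were at hand for 24 of the 32 members, in 33 windows. The windows printed are those of Bsn and Syn2, which fell after LPS, and those of Unc13a and Syn1, which hold the RE1 letters described next. Each is written 5′ to 3′ on the gene's strand, with capitals marking a motif match.
Bsn, chr9:108190334-108190633, minus strand: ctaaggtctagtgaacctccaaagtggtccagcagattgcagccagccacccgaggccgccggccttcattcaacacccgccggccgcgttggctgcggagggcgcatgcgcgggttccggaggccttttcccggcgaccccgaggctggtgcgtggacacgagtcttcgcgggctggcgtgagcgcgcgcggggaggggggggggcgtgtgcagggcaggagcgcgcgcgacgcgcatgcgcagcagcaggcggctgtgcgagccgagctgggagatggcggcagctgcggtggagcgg
Syn2, chr6:115134652-115134951, plus strand: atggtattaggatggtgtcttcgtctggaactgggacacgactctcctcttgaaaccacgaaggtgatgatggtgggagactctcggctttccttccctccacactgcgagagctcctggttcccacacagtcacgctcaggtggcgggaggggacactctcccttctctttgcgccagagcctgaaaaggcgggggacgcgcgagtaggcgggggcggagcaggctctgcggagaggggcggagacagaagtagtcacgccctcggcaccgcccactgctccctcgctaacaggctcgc
Syn2, second start, chr6:115238744-115239043, plus strand: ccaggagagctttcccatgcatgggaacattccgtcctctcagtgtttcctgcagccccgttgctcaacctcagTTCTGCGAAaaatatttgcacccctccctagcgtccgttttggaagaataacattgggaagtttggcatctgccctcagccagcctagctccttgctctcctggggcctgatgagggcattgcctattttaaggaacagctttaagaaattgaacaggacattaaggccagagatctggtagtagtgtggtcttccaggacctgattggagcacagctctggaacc
Unc13a, chr8:71671708-71672007, minus strand: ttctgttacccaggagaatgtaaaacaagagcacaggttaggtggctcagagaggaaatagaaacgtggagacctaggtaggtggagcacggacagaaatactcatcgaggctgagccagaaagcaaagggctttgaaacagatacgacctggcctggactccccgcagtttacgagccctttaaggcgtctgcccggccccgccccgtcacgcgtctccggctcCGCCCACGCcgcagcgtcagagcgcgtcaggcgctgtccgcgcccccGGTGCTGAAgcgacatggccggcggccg
Syn1, chrX:20920869-20921168, minus strand: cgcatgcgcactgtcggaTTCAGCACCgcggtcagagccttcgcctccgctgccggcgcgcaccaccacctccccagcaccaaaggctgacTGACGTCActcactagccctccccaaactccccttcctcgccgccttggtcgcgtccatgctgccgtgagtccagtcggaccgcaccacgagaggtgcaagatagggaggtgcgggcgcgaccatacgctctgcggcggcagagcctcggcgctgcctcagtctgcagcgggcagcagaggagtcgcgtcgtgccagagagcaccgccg

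Capitals mark 4 motifs, each searched on both strands. The first part of the RE1 element, TTCAGCACC, which the repressor REST binds in neuronal genes, occurred in 2 of the 33 windows (6.06%), those of Syn1 and Unc13a, against 0.371% of all 32851 windows of the same length. In Syn1 it began 232 bases before the start, and in Unc13a 22 bases after it on the opposite strand. The cAMP response element TGACGTCA was in the Syn1 window, 159 bases before the start (3.03% of windows against 1.79% of all). The Egr1 site GCGTGGGCG was in the Unc13a window, 25 bases before the start, and overlapped a GC box there (3.03% of windows against 0.612% of all). The STAT site TTCNNNGAA was in the second Syn2 window and in a Sv2b window (6.06% of windows against 8.3% of all). The GC box GGGCGG, left in lower case, was in 20 windows (60.6%), against 35.7% of all. The Bsn window held none of the 5 motifs. These are matches of letters, not measured binding.

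Values are log2 of the background-subtracted spot signal minus the array's 75th percentile of that signal, so 0 is the brightness of a probe at that percentile. Probe brightness depends on the probe, so levels are compared between arrays and never between genes. A gene with several probes is represented by its standing probe, the one above background on the most arrays and then the brightest. The LPS effect is the mean of the 2 LPS arrays minus the mean of the 2 PBS arrays, estimated with limma over 17131 genes with genotype and agent as terms. Errors given as ± are the model's standard errors, and p-values are two-sided and adjusted by Benjamini-Hochberg over all 17131 genes, with a threshold of 0.05. The model has 1 residual degree of freedom, which is the difference of a gene's LPS responses between the genotypes. That difference is therefore counted as error, and each error also leans on other genes of like brightness. With 1 array left out the model has no residual degree of freedom, so those fits used agent as the only term. They are set beside the agent-only fit of all 4 arrays. For a single gene an exact permutation of 2 arrays against 2 could not give a p-value below 0.333.

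After LPS, 3 of the 31 genes fell and 1 rose, against backgrounds of 4.54% of all genes lower and 5.62% higher. The genes that fell were Bsn, Syngr3 and Syn2, and the gene that rose was Syn3. Their changes were between 1.26-fold and 1.54-fold. The other 27 genes did not pass the test. At an unadjusted p under 0.05 the count was 11 of 31 (35.5%), against 23.5% of all genes. The median LPS effect was -0.07 over the 31 genes and -0.03 over all genes. Of the 31 effects, 23 were negative and 8 positive, and 15 lay within 0.1 of 0. Both LPS arrays were below both PBS arrays for 14 genes, against a background of 29.4% of all genes, and above them for 2 genes, against 21.7%. In whole tissue, fewer cells of a type and less RNA per cell cannot be told apart.

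**Figure D1:**
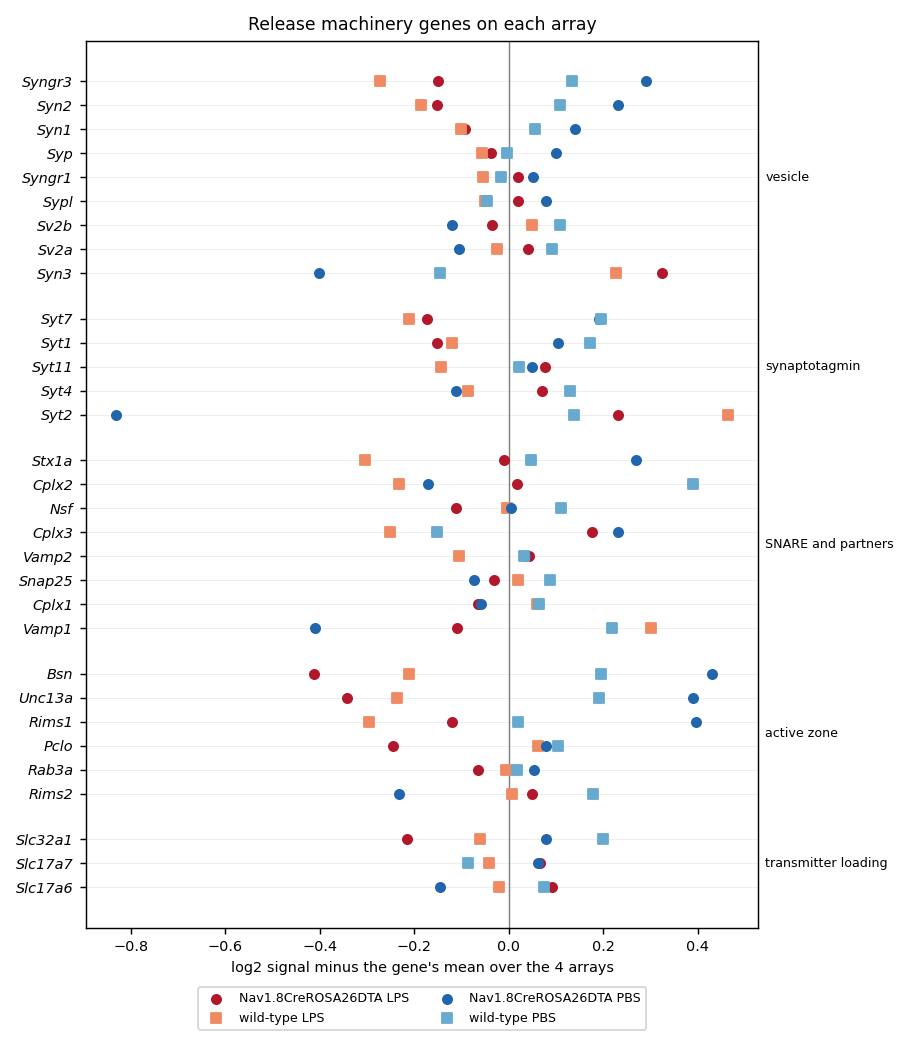
Signal of the 31 release machinery genes on each of the 4 arrays, as log2 signal minus the gene's own mean over the arrays (horizontal axis), with genes down the page by role. Circles are Nav1.8CreROSA26DTA and squares wild-type arrays, in red shades for LPS and blue shades for PBS, 1 array per group. For Bsn, Unc13a, Rims1, Syngr3 and Syn2 both red points lie left of both blue points, and for Syn3 and Syt2 both lie to the right.

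The active zone group holds 6 genes that build the release site, and its median LPS effect was -0.30. Of the 6, 1 passed the test, as lower, against 4.54% of all genes lower. Bsn encodes Bassoon, a very large scaffold protein of the active zone. Its log2 signal was 3.03 on the Nav1.8CreROSA26DTA LPS array and 3.23 on the wild-type LPS array, against 3.87 and 3.64 on the Nav1.8CreROSA26DTA and wild-type PBS arrays. Both LPS arrays were low and the groups did not overlap. Bsn fell by 0.63 ± 0.11 on the log2 scale, a 1.54-fold change (limma adjusted p = 0.00838). The difference was -0.84 in Nav1.8CreROSA26DTA mice and -0.41 in wild-type mice, and its second probe gave an LPS effect of -0.54 ± 0.19. In the agent-only model Bsn passed with all 4 arrays (adjusted p = 0.0353), and with 1 array left out its effects were -0.74 to -0.51. In that model the adjusted p was 0.142 without the Nav1.8CreROSA26DTA LPS array and 0.127 without the Nav1.8CreROSA26DTA PBS array, and stayed under 0.05 without either wild-type array. In the model with both terms but no intensity trend it was 0.19.

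Unc13a encodes Munc13-1, the main priming factor of central synapses. Its log2 signal was -2.47 and -2.36 on the Nav1.8CreROSA26DTA and wild-type LPS arrays, against -1.74 and -1.93 on the PBS arrays in the same order of genotype. The groups did not overlap, with both LPS arrays low. The LPS effect was -0.58 ± 0.17 and did not pass the test (limma adjusted p = 0.0616). Rims1 encodes RIM1, the scaffold that ties vesicles to calcium channels. It read -0.34 and -0.52 on the Nav1.8CreROSA26DTA and wild-type LPS arrays, against 0.17 and -0.20 on the corresponding PBS arrays. Again both LPS arrays lay below both PBS arrays, the effect was -0.42 ± 0.12 (limma adjusted p = 0.0593), and all 3 of its probes gave a negative effect, between -0.47 and -0.36.

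The remaining active zone genes had smaller effects. Pclo encodes Piccolo, a scaffold related to Bassoon, and its effect was -0.18 ± 0.10 (limma adjusted p = 0.318), with 3 negative probes. For Rab3a, the vesicle GTPase that binds RIM, the effect was -0.07 ± 0.09. Its standing probe was printed as 10 spots, whose SD within an array was 0.0343 to 0.0527, which is technical error only. Rims2, the second RIM gene, read 0.64 and 0.60 on the Nav1.8CreROSA26DTA and wild-type LPS arrays, against 0.36 and 0.77 on the corresponding PBS arrays. These arrays overlapped, and the effect of 0.06 ± 0.13 had the sign opposite to that of the gene's other probe, -0.36.

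**Figure D2:**
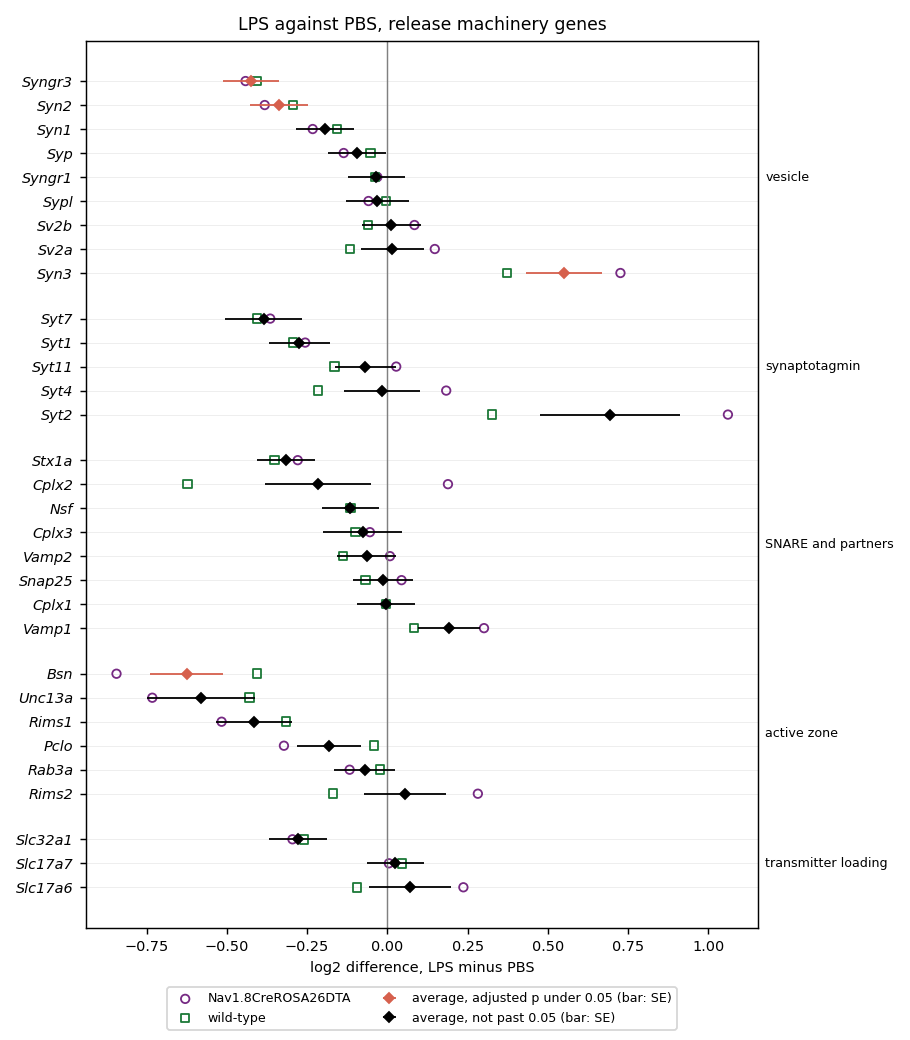
LPS effect of the 31 genes (horizontal axis, log2 difference, LPS minus PBS), by role. Open symbols are the differences within each genotype, and diamonds with bars are the average and its limma standard error, coloured where the adjusted p passed 0.05. Bsn lies farthest to the left at -0.63, and Syt2 farthest to the right at 0.69 with the widest bar.

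Among 9 genes of the vesicle membrane and its tether, 2 fell and 1 rose, against 4.54% and 5.62% of all genes. Their median effect was -0.03. Syngr3 encodes synaptogyrin-3, a vesicle membrane protein. It read 3.61 and 3.49 on the Nav1.8CreROSA26DTA and wild-type LPS arrays, against 4.06 and 3.90 on the corresponding PBS arrays. The groups did not overlap, and the difference was of like size in both genotypes, -0.44 in Nav1.8CreROSA26DTA mice and -0.41 in wild-type mice. Syngr3 fell by 0.42 ± 0.09, a 1.34-fold change (limma adjusted p = 0.0153). Without the intensity trend it did not pass. The call was lost in the agent-only model with all 4 arrays (adjusted p = 0.0646) and in that model with 1 array left out (0.0857 to 0.222), and with scaling to pan-neuronal genes, which gave -0.23 (adjusted p = 0.103).

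The synapsins, which tether vesicles in the reserve pool, did not move in the same direction. Syn2 read 4.85 and 4.82 on the Nav1.8CreROSA26DTA and wild-type LPS arrays, against 5.24 and 5.11 on the corresponding PBS arrays. Both LPS arrays were low, and Syn2 fell by 0.34 ± 0.09, a 1.26-fold change (limma adjusted p = 0.0472). This call lay at the threshold: the adjusted p was 0.114 after quantile normalization, 0.141 after cyclic loess and 0.0972 on the deposited value table. In the agent-only model it was 0.0891 with all 4 arrays and 0.106 to 0.290 with 1 array left out. Without the intensity trend Syn2 did not pass either. With each probe fitted on its own, its standing probe did not pass (limma adjusted p = 0.0635), and its other probe gave -0.15. Syn3 is the synapsin known from early neuronal development. It read 0.86 and 0.77 on the Nav1.8CreROSA26DTA and wild-type LPS arrays, against 0.14 and 0.39 on the corresponding PBS arrays. Both LPS arrays were high, and Syn3 rose by 0.55 ± 0.12, a 1.46-fold change (limma adjusted p = 0.0189). The difference was 0.73 in Nav1.8CreROSA26DTA mice and 0.37 in wild-type mice, and its other probe gave 0.23. Without the intensity trend Syn3 did not pass. Syn3 lost its call in the agent-only model with all 4 arrays (adjusted p = 0.0613) and in that model with 1 array left out (0.0608 to 0.271), and when its probes were averaged, which gave 0.39 (adjusted p = 0.13).

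Syn1, a standard marker of nerve terminals, read 5.20 on each LPS array, against 5.44 and 5.35 on the Nav1.8CreROSA26DTA and wild-type PBS arrays. LPS arrays lay below PBS arrays, but the effect of -0.19 ± 0.09 did not pass the test (limma adjusted p = 0.238). Syp encodes synaptophysin, a standard marker of synaptic vesicles. It read 5.36 and 5.34 on the Nav1.8CreROSA26DTA and wild-type LPS arrays, against 5.50 and 5.39 on the corresponding PBS arrays, an effect of -0.09 ± 0.09 (limma adjusted p = 0.596). The vesicle glycoproteins Sv2a and Sv2b, the synaptophysin relative Sypl and the standing probe of Syngr1 had effects between -0.03 and 0.02.

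Of 6 synaptotagmin genes, 5 were measured and 0 passed the test in limma. At an unadjusted p under 0.05 there were 3 of the 5, against 23.5% of all genes. Syt1, the calcium sensor of fast release in the forebrain, read 6.59 and 6.63 on the Nav1.8CreROSA26DTA and wild-type LPS arrays, against 6.85 and 6.92 on the corresponding PBS arrays. LPS arrays were low without overlap, and the effect was -0.27 ± 0.10 (limma adjusted p = 0.115). Syt7, a sensor of slower release, read -0.82 and -0.85 on the Nav1.8CreROSA26DTA and wild-type LPS arrays, against -0.45 on each PBS array. That difference of -0.39 ± 0.12 was nearly equal in both genotypes, -0.37 in Nav1.8CreROSA26DTA mice and -0.41 in wild-type mice, with limma adjusted p = 0.083. Syt2, the fast sensor of hindbrain and some inhibitory terminals, read -2.44 and -2.21 on the Nav1.8CreROSA26DTA and wild-type LPS arrays, against -3.50 and -2.54 on the corresponding PBS arrays. The Nav1.8CreROSA26DTA PBS array stood lowest, and the effect was 0.69 ± 0.22 (limma adjusted p = 0.0831). Both Syt2 probes gave nearly the same effect, 0.69 and 0.70. Syt4 and Syt11 had effects of -0.02 and -0.07.

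The SNARE proteins and their partners, 8 genes, had a median effect of -0.07, and 0 passed the test in limma. At an unadjusted p under 0.05 there was 1 of the 8, against 23.5% of all genes. That gene was Stx1a, which encodes syntaxin-1A of the presynaptic membrane. It read 3.0997 and 2.80 on the Nav1.8CreROSA26DTA and wild-type LPS arrays, against 3.38 and 3.16 on the corresponding PBS arrays. Its LPS arrays were below its PBS arrays, with an effect of -0.32 ± 0.09 (limma adjusted p = 0.0577). Snap25, its membrane partner, read 5.84 and 5.88 on the Nav1.8CreROSA26DTA and wild-type LPS arrays, against 5.79 and 5.95 on the corresponding PBS arrays. Here the groups overlapped and the effect was -0.01 ± 0.09, while a second Snap25 probe gave 0.29 ± 0.10. Vamp2, the synaptobrevin of most central synapses, had an effect of -0.07 ± 0.09. The largest positive effect of the group, 0.19 ± 0.10, was that of Vamp1, the synaptobrevin of hindbrain and motor terminals. Cplx1, Cplx2 and Cplx3 encode complexins, and their effects were -0.01, -0.22 and -0.08, none past the test. Nsf had an effect of -0.12 on its standing probe.

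Of the 3 genes that load transmitter, 0 passed the test in limma. At an unadjusted p under 0.05 there was 1 of the 3, Slc32a1, against 23.5% of all genes. Slc32a1, the vesicular GABA transporter, read 4.85 and 5.01 on the Nav1.8CreROSA26DTA and wild-type LPS arrays, against 5.15 and 5.27 on the corresponding PBS arrays. LPS arrays were lower without overlap, with an effect of -0.28 ± 0.09 (limma adjusted p = 0.0899). Slc17a7, the vesicular glutamate transporter VGLUT1 of cortex, read 2.72 and 2.61 on the Nav1.8CreROSA26DTA and wild-type LPS arrays, against 2.72 and 2.57 on the corresponding PBS arrays. Slc17a6, VGLUT2 of subcortical neurons, read -0.28 and -0.39 on the LPS arrays of Nav1.8CreROSA26DTA and wild-type mice, against -0.51 and -0.29 on the PBS arrays. Both glutamate transporters overlapped between LPS and PBS, with effects of 0.02 ± 0.09 and 0.07 ± 0.13.

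Where a gene had several probes, they often read it differently. Of 13 such genes, with 29 probes, 8 had effects of 1 sign and 5 (Cplx2, Rab3a, Rims2, Snap25 and Sypl) had both signs. Fitted probe by probe over 37793 probes, an analysis added after the data were seen, 4 of the 47 member probes fell and 1 rose, against backgrounds of 1.92% and 3.04% of probes. The probes that fell belonged to Bsn, Syngr3, Nsf and Syngr1, and the one that rose to Syn3. The Syngr1 probe, matched to a different transcript from the standing one, read 0.15 and 0.11 on the Nav1.8CreROSA26DTA and wild-type LPS arrays, against 0.93 and 0.66 on the corresponding PBS arrays. It fell by 0.66 ± 0.12 (limma adjusted p = 0.014), whereas the standing probe had an effect of -0.03 ± 0.09. One Nsf probe fell by 0.51 ± 0.11 (limma adjusted p = 0.033), and the other 2 Nsf probes gave -0.27 and -0.12. Which transcript forms these probes read was not tested.

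**Figure D3:**
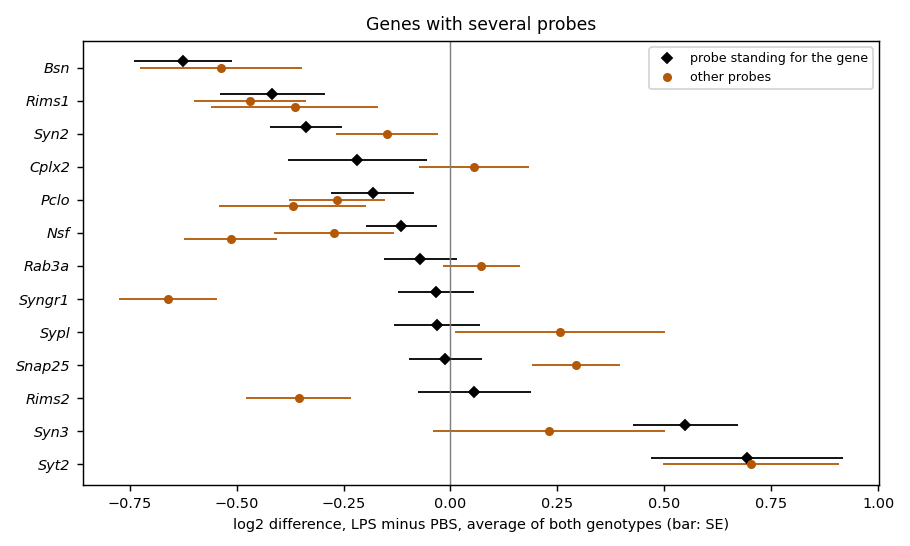
LPS effect of each probe of the 13 genes with several probes (horizontal axis, log2 difference, LPS minus PBS, average of both genotypes, bars are limma standard errors). Diamonds are the probe that stands for the gene and circles its other probes. The 2 probes lie together for Bsn and Syt2 and far apart for Syngr1 (-0.03 and -0.66).

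Other genes of the release pathway were counted in the same fit, in which 4.54% of all genes fell and 5.62% rose. Of 50 further release genes, 7 fell and 1 rose, with a median effect of -0.14. Doc2a, a calcium sensor of asynchronous and spontaneous release, fell by 0.55 ± 0.14, and Rimbp2, which links RIM to calcium channels, fell by 0.54 ± 0.11. Syngr2, a synaptogyrin expressed mostly outside neurons, rose by 0.62 ± 0.10. Among 21 presynaptic calcium channel and adhesion genes 5 fell and 0 rose, median -0.18, including Apba1 (-0.46), Ptprf (-0.40) and the P/Q-type calcium channel gene Cacna1a (-0.39). Among 33 genes of vesicle endocytosis and acidification 0 passed the test in limma, and the median was -0.02. At an unadjusted p under 0.05 there were 3, against 23.5% of all genes.

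Markers of neurons moved beside these genes. All 19 pan-neuronal markers with a probe were above background on all 4 arrays. After LPS 4 of them fell and 0 rose, with a median of -0.14. The shares of all genes were 4.54% lower and 5.62% higher. Tubb3, neuronal tubulin, fell by 0.58 ± 0.11. The summed linear signal of the 19 markers, in units of the array's 75th percentile, was 649 and 685 on the Nav1.8CreROSA26DTA and wild-type LPS arrays, against 748 and 730 on the corresponding PBS arrays. The same sum over the 31 release genes was 697 and 689 on the LPS arrays, against 748 and 801 on the PBS arrays. A linear sum covers every gene of a list with a probe and is weighted to the brightest probes, so it does not describe the list gene by gene. Cplx2, the brightest member on the wild-type PBS array, read 7.05 there and 6.43 on the wild-type LPS array on the log2 scale. Its LPS effect did not pass the test (limma adjusted p = 0.489). Scaling each array to the pan-neuronal median in place of the 75th percentile turned the members' median effect to 0.13, beside 0.17 for all genes, and left Bsn as the only gene that fell while Syn3, Syt2 and Vamp1 rose. Non-neuronal lists differed among themselves. Astrocyte markers had a median of -0.10 (2 rose and 1 fell of 10), endothelial markers 0.10 (2 rose and 4 fell of 9) and oligodendrocyte markers -0.29 (1 rose and 2 fell of 10). Choroid plexus markers had a median of 0.41 (1 of 5 rose) and 4 red cell markers 0.07. Within a genotype the red cell median was far from that, -1.13 in Nav1.8CreROSA26DTA mice and 1.19 in wild-type mice. In 3 further lists, 6 of 7 oligodendrocyte precursor markers fell (median -0.72), 4 of 10 microglia and macrophage markers fell (median -0.50), and 5 of 8 neutrophil and monocyte markers rose (median 2.35). Their summed signals on the Nav1.8CreROSA26DTA and wild-type LPS arrays, against the corresponding PBS arrays, were 13.9 and 9.08 against 21.2 and 16.4 for the precursors. The sums were 69.3 and 67.7 on the LPS arrays against 84.9 and 77.8 on the PBS arrays for microglia and macrophages, and 91.0 and 89.9 against 59.2 and 73.2 for neutrophils and monocytes, with Cxcr2 not well above background on any array. The part of these shifts in the members' effects was not tested.

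**Figure D4:**
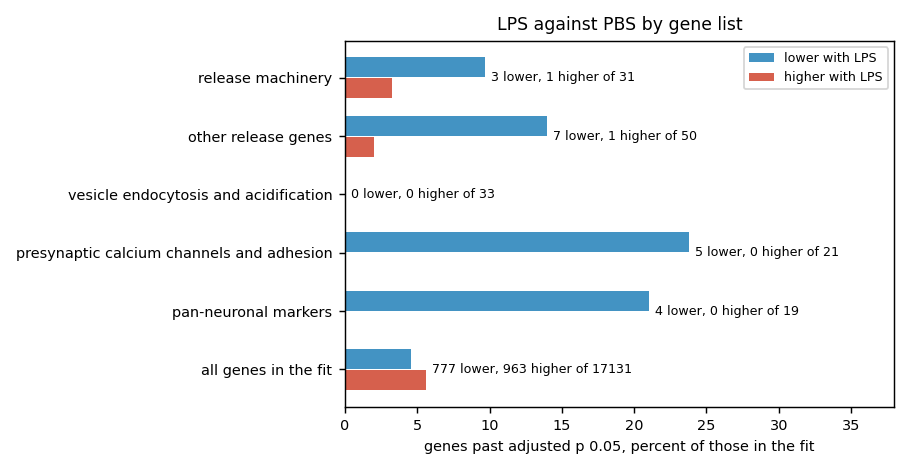
Share of genes past an adjusted p of 0.05 after LPS (horizontal axis, percent of the genes in the fit), for the release machinery, 4 other gene lists and all genes in the fit. Blue bars are genes lower with LPS and red bars genes higher, with the counts written beside them. The release machinery has 3 of 31 lower and 1 higher, and presynaptic calcium channel and adhesion genes have 5 of 21 lower and 0 higher.

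Within a genotype each comparison rests on 1 array against 1, so no test was possible, and genes at least 1.5-fold apart were counted. In Nav1.8CreROSA26DTA mice, LPS was higher for 2 genes, Syn3 and Syt2, against a background of 7.04%, and lower for 2, Bsn and Unc13a, against 6.28%. In wild-type mice, LPS was higher for 0 genes, against 6.54%, and lower for 1, Cplx2, against 3.2%. The median difference over the 31 genes was -0.05 in Nav1.8CreROSA26DTA mice and -0.12 in wild-type mice, beside -0.04 and -0.02 over all genes. Signs matched in both genotypes for 22 genes, 18 negative and 4 positive, and were opposite for 9, against a background of 32.6% opposite. The 2 differences share no array.

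Cplx2, complexin-2, a complexin found mainly in excitatory neurons, gave the largest split between the genotypes. It read 6.68 and 6.43 on the Nav1.8CreROSA26DTA and wild-type LPS arrays, against 6.49 and 7.05 on the corresponding PBS arrays. LPS was higher by 0.19 in Nav1.8CreROSA26DTA mice and lower in wild-type mice (-0.62), so the responses differed by 0.81, a 1.76-fold difference. Responses differed by at least 1.5-fold, higher in Nav1.8CreROSA26DTA mice, for 2 genes, Cplx2 and Syt2, against a background of 5.52%, and lower for 0, against 6.48%. These counts share arrays with the others at 1.5-fold. The high wild-type PBS array (7.05) enters both the wild-type fall of Cplx2 and its split. For Syt2 the low Nav1.8CreROSA26DTA PBS array (-3.50) enters the split, the LPS rise in that genotype and the genotype difference with PBS. The second Cplx2 probe gave differences of 0.34 and -0.23 in Nav1.8CreROSA26DTA and wild-type mice. No error can be put on these differences, since each response is 1 pair of arrays. In the averaged model a gene's difference of responses is the residual, so it is counted there as error.

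Nav1.8CreROSA26DTA brains were set against wild-type brains in the same model, averaged over both injections. Of the 31 genes 0 were higher and 0 lower in limma, against backgrounds of 0.304% and 0.105% of all genes. Those backgrounds, 52 and 18 genes, ran from 0 to 654 higher and 0 to 304 lower over the alternatives, and were 0 in the genotype-only model and without the intensity trend. At an unadjusted p under 0.05 there were 5 (16.1%), namely Syt2, Vamp1, Stx1a, Cplx3 and Rims1, against 10.2% of all genes. The median genotype effect was -0.01 over the members and 0.02 over all genes. Both Nav1.8CreROSA26DTA arrays were below both wild-type arrays for 4 genes, against 12.8% of all genes, and above them for 6, against 16.1%.

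Vamp1 came nearest to the threshold. It read 2.70 on the Nav1.8CreROSA26DTA LPS array and 2.40 on the Nav1.8CreROSA26DTA PBS array, against 3.11 and 3.03 on the wild-type LPS and PBS arrays. Both Nav1.8CreROSA26DTA arrays were low without overlap, and the genotype effect was -0.52 ± 0.10 (limma adjusted p = 0.0649). It passed the test under 4 of the alternatives tried, with normexp background, median scaling, quantile normalization or no filter, and values of -0.55 to -0.51. Genotype calls over all genes were also more numerous under those settings, with 127, 31, 28 and 304 genes lower, in the same order, beside 18 in the model as reported. With PBS the difference was -0.63, or 1.55-fold, and with LPS -0.41. The genotype effect of Syt2 was -0.60 ± 0.22 (limma adjusted p = 0.358), with a difference of -0.97, or 1.96-fold, under PBS and -0.23 under LPS. Cplx3, a complexin of the retina and of some cortical neurons, read -0.63 and -0.58 on the Nav1.8CreROSA26DTA LPS and PBS arrays, against -1.06 and -0.96 on the wild-type arrays. Its effect was 0.40 ± 0.12 (limma adjusted p = 0.261), and both Nav1.8CreROSA26DTA arrays were high.

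**Figure D5:**
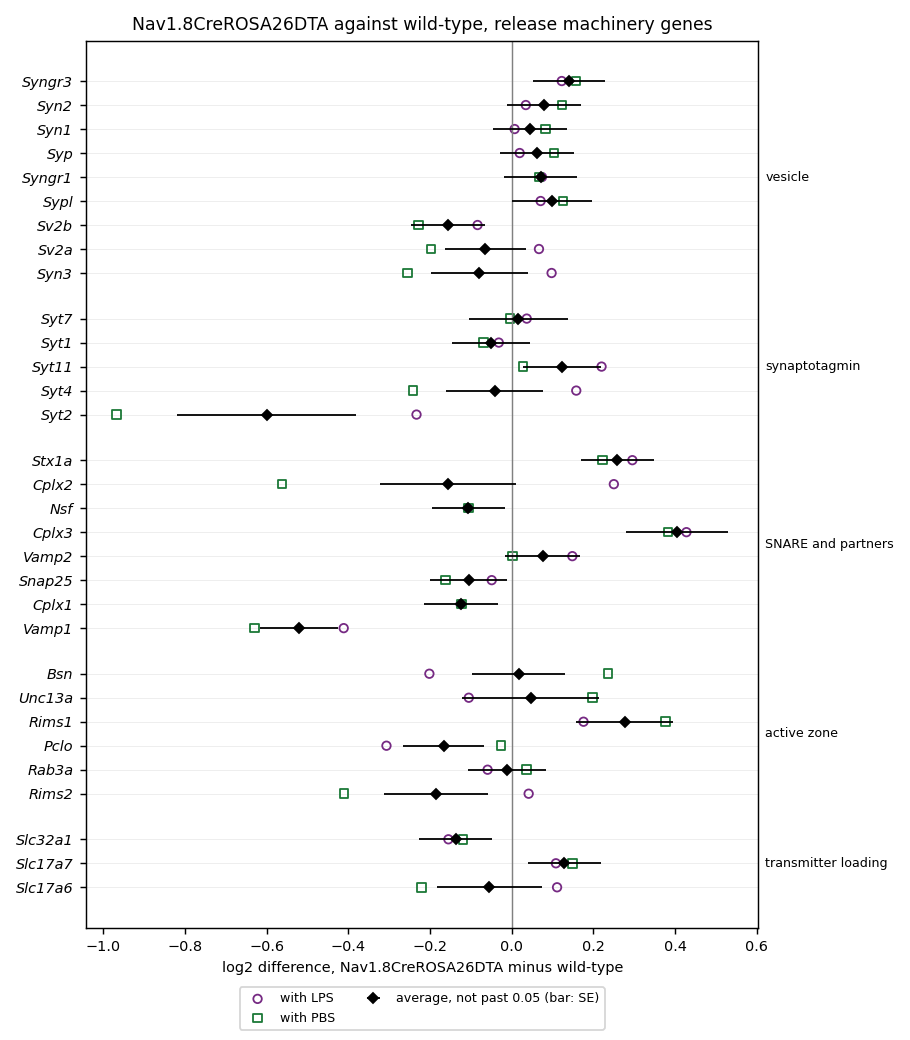
Genotype effect of the 31 genes (horizontal axis, log2 difference, Nav1.8CreROSA26DTA minus wild-type), by role. Open circles are the difference with LPS and open squares with PBS, and diamonds with bars are the average with its limma standard error. Vamp1 (-0.52) and Syt2 (-0.60) lie farthest to the left, and Cplx3 (0.40) farthest to the right.

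Stx1a and Rims1 had genotype effects of 0.26 ± 0.09 and 0.28 ± 0.12, and neither passed the test. Sv2b, a vesicle glycoprotein, read 3.31 and 3.22 on the Nav1.8CreROSA26DTA LPS and PBS arrays, against 3.39 and 3.45 on the wild-type arrays. Syt11, a synaptotagmin that does not bind calcium, read 5.30 and 5.27 on the Nav1.8CreROSA26DTA LPS and PBS arrays, against 5.08 and 5.24 on the wild-type arrays. Neither gene overlapped between genotypes, and the effects of -0.16 ± 0.09 and 0.12 ± 0.10 did not pass the test. Counted at 1.5-fold within an injection, Nav1.8CreROSA26DTA against wild-type with PBS was lower for 2 genes, Syt2 and Vamp1, against a background of 2.11%, and higher for 0, against 4.9%. With LPS it was higher for 0, against 3.1%, and lower for 0, against 1.65%. Lists of other cell types moved in the same pair of PBS arrays. The median of Nav1.8CreROSA26DTA minus wild-type with PBS was 2.90 for neutrophil and monocyte markers and 2.93 for red cell markers. For pituitary markers it was 2.75, over 4 genes. Among brain region lists it was 0.17 for cerebellum, 0.07 for cortex and hippocampus and 0.05 for striatum. Thalamus, midbrain and hindbrain markers had 0.03, beside 0.04 over all genes. For the averaged genotype effect, 1 of 10 cerebellum markers was higher, against 0.304% of all genes, and 0 passed in the other region lists. At an unadjusted p under 0.05 in limma there were 4 of 10 for cerebellum and 3 of 10 for thalamus, midbrain and hindbrain. Striatum had 2 of 10 and cortex and hippocampus 2 of 16, against 10.2% of all genes. The neutrophil and monocyte sum ran opposite to that list's median in the PBS pair, at 59.2 on the Nav1.8CreROSA26DTA array against 73.2 on the wild-type array. The 2 are unlike measures: the sum covers 10 markers with a probe and is weighted to the brightest. The median covers the 8 in the fit and weighs each alike. For 6 red cell markers with a probe, the summed linear signal was 174 and 335 on the Nav1.8CreROSA26DTA LPS and PBS arrays, against 108 and 45.4 on the wild-type arrays. Oligodendrocyte markers had a median genotype effect of 0.73, with 3 of 10 higher, against 0.304% of all genes. Their sum was 204 and 178 on the Nav1.8CreROSA26DTA LPS and PBS arrays, against 105 and 153 on the wild-type arrays. The part of these shifts in the members' values was not tested.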

How the data were processed

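Spot intensities of the 4 arrays were read as deposited: the processed signal is a background-subtracted, detrended Cy3 intensity without scaling between arrays, per the file headers. The headers name Feature Extraction 12.0.3.1, the submitters' processing notes 11.0.1.1. The design grid is mm9. RNA was extracted with TRIzol, per the labels' protocols. The deposited value table, also an intensity, equals each array's processed signal times 1 factor (1.57 to 2.09) and served as an alternative; its column medians were 102, 103, 91.4 and 97.2 in the order Nav1.8CreROSA26DTA LPS, wild-type LPS, Nav1.8CreROSA26DTA PBS, wild-type PBS, and the origin of the factors is not stated in the labels or headers.

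Each array held 59305 spots (66.5% to 69.5% well above background, 0 saturated); 81 to 96 outlier spots per array were left out. Spots of a probe were averaged, and 299 probes with 10 spots had a spot SD of 0.0483 to 0.0530 (log2). Of 56605 probes 33767 were named through their accessions with the GRCm38.p6 gene table. A gene is its probe above background on most arrays, then the brightest, and 17131 genes above background on at least 2 of 4 arrays were fitted with limma 3.58.1 in R 4.3.3. The files hold no mean signal, so the normexp alternative (offset 50) used the median signal. Simulated data with 200 changed genes were run through the model. They gave all genes the same spread, so they cannot test its intensity trend. The 4 arrays shared 1 slide and 1 scan, with LPS in row 2, PBS in row 1, and the genotypes in columns 4 (Nav1.8CreROSA26DTA) and 3 (wild-type), so slide position and group cannot be told apart; precision is limited by the number of arrays.

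The members, gene lists and tests were chosen with earlier results of these data known. Described in full were members that passed the threshold, differed 1.5-fold in a pair of arrays or were extreme in their role group, plus 7 textbook members. Some single-gene results outside the members are not reported here. The closing section gives the alternatives.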

Additional observations from a re-analysis of the deposited data

Results flagged for a closer look

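The LPS responses of Cplx2 ran in opposite directions in the 2 genotypes, 0.19 in Nav1.8CreROSA26DTA mice and -0.62 in wild-type mice, a difference of 0.81 on the log2 scale. It was singled out because the responses were of opposite sign and at least 1.5-fold apart. Each response rests on 1 array against 1, so the difference was not tested. The second Cplx2 probe gave 0.34 and -0.23 in Nav1.8CreROSA26DTA and wild-type mice.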

How the results depend on the processing

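The number of members that fell after LPS was 3, and it was 8 with normexp background, 7 with median scaling, 7 with no filter, 1 with scaling to pan-neuronal genes, 1 with a single-term model and 0 without an intensity trend. The number that rose was 1, and it was 3 with scaling to pan-neuronal genes, 2 with no filter, and 0 without an intensity trend, with a single-term model or with the mean of a gene's probes. Fits with 1 array left out also used a single term, and in them 0 to 1 fell and 0 rose, beside 1 and 0 in the single-term model of all 4 arrays (limma, with 5 to 8 lower and 1 to 3 higher at an unadjusted p under 0.05, beside 9 and 1). Without the trend those unadjusted counts were 7 and 2. The number lower in Nav1.8CreROSA26DTA mice was 0, and 1 (Vamp1) with normexp background, median scaling, quantile normalization or no filter. Over all genes the genotype counts were 52 higher and 18 lower, against 260 and 127, 166 and 31, 97 and 28, and 654 and 304 under those settings in that order, 15 and 4 with cyclic loess, 20 and 8 on the deposited table, 283 and 16 with scaling to pan-neuronal genes, 23 and 5 with the mean of probes, and 0 and 0 without a trend or with a single term. Scaling to pan-neuronal genes moved the members' median to 0.13 for LPS and 0.12 for genotype, and to 0.18 for LPS in Nav1.8CreROSA26DTA mice, 0.048 for LPS in wild-type mice and 0.20 for genotype with LPS. In single-term fits with 1 array left out, the median genotype effect was -0.12 to 0.090. The cause of these shifts was not tested. Of 496 LPS values of single members under alternatives, 450 stayed on the same side of the threshold, 29 lost a call, 17 gained one and 0 calls turned direction, and 70 values of uncalled effects changed sign. Over all genes, 963 rose and 777 fell, against 939 and 433 with cyclic loess, 1045 and 435 on the deposited table, 963 and 1292 with median scaling, 1022 and 1174 with normexp background, 2134 and 286 with scaling to pan-neuronal genes, and 382 and 48 without an intensity trend. Other alternatives kept the all-gene counts between 597 and 1582 higher and 278 and 1567 lower, and single-term fits with 1 array left out gave 370 to 514 higher and 70 to 187 lower. No paired analysis was possible because each group holds 1 array, so replicate 1 is the only number the groups share.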

Other observations

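Sv2c, the third vesicle glycoprotein of the Sv2 family, expressed mainly in the basal ganglia and midbrain, was the 1 further release gene of 50 that differed by genotype. Over all genes, 0.304% were higher and 0.105% lower in Nav1.8CreROSA26DTA mice. Sv2c read -2.42 and -2.24 on the Nav1.8CreROSA26DTA LPS and PBS arrays, against -5.53 and -4.74 on the wild-type LPS and PBS arrays. Both Nav1.8CreROSA26DTA arrays were high without overlap, and the genotype effect was 2.80 ± 0.26 (limma adjusted p = 0.0043). Its family members Sv2a and Sv2b had genotype effects of -0.07 and -0.16, neither past the test. The lowest signal of any spot well above background was between -6.33 and -5.91 on the 4 arrays. It was -5.91 on the wild-type LPS array, so the value of -5.53 there lay near that limit. On the wild-type PBS array it was -6.33, and the value of -4.74 lay further above it. No gene of the fit passed for genotype without the intensity trend, so the Sv2c call was lost there. None passed in the single-term model either, so leaving out arrays, which needs that model, adds nothing on Sv2c.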
